A study of Homo sapiens with 8 samples.

Results

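TGF-beta and BMP signalling was followed through 60 genes in m6A profiles of 2 human hepatocellular carcinoma cell lines, HUH7 and PLC/PRF/5, in which CSTF2 had been knocked out. The genes were chosen by name, as ligands, receptors, SMAD proteins, negative regulators and targets of the pathway. Of the 60, 51 were listed among the 10447 values of the HUH7 column and 23 among the 5475 genes of the PLC/PRF/5 column. The whole table named 11992 genes. A total of 22 members were listed in both lines, 29 in HUH7 only and FST in PLC/PRF/5 only. The remaining 8 were BMP6, BMP7, BMPR1B, CHRD, FSTL1, ID1, LTBP4 and NOG, which were listed in neither column.

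In each line, cells carrying a CRISPR-Cas9 knockout of CSTF2 were set against the parental line. CSTF2 (CstF-64) belongs to the cleavage stimulation factor, a complex needed to cut and polyadenylate the 3′ ends of mRNAs. MeRIP-seq captures fragments of RNA with an antibody against N6-methyladenosine (m6A), a methyl mark on adenosine in mRNA, and sequences them beside an input library. The 8 groups (line, genotype, IP or input) held 1 library each, no clone of the knockout is named in the labels, and no value below has a replicate or a test. The values are log2 fold changes made by the authors, 1 per gene in HUH7 and 1 per peak in PLC/PRF/5. Which genotype is the numerator is not stated, so signs are given as deposited, and neither sign is read as gain or loss in the knockout. A value is called large here when its size is 1 or more on the log2 scale, a 2-fold difference.

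TGF-beta family ligands bind pairs of type II and type I receptor kinases at the cell surface. TGF-beta, activin and nodal signal mainly through SMAD2 and SMAD3, and BMPs mainly through SMAD1, SMAD5 and SMAD9, each with the shared partner SMAD4. The complexes enter the nucleus and act on genes such as the ID genes, and the pathway induces its own inhibitors, among them SMAD6, SMAD7, SKIL and BAMBI. In the liver, TGF-beta restrains hepatocyte growth and drives fibrosis, and BMP signals control the iron hormone hepcidin.

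The SMAD complexes recognise short DNA motifs, and the promoters of 2 feedback inhibitors show what these look like. They are printed because both genes are members with values below, and they are background to the pathway, since the assay reads RNA. The sequences are the 250 bases before the annotated gene start, from RefSeq (GRCh38.p14), with the motif in capitals. SMAD6, at chr15:66701986-66702235 on the plus strand, holds the palindromic SMAD element GTCTAGAC, from 12 to 5 bases before the start. BAMBI, at chr10:28677271-28677520 on the plus strand, holds 3 copies of GGCGCC, a motif bound by the SMADs of the BMP branch.
SMAD6: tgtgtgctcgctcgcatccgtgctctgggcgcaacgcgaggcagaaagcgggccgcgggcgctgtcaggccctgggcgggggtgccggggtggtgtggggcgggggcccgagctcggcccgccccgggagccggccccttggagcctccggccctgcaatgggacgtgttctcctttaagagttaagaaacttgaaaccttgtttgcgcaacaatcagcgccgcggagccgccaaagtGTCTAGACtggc
BAMBI: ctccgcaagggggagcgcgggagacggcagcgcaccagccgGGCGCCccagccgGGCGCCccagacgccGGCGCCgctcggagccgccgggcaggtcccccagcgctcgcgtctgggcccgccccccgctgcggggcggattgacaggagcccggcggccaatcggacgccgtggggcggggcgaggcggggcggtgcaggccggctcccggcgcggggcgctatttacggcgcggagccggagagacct
Both motifs read the same on either strand. RefSeq promoter windows were found for 52 of the 60 members, 90 windows in all, since some genes have several starts. GTCTAGAC was found in 1 of these 90 windows and in 0.182% of all 35116 windows. GGCGCC was found in 24.4% of the member windows, in 20 genes, and in 16.4% of all windows. CAGACA, a further motif bound by SMAD3 and SMAD4 and searched on both strands, was found in 16.7% of the member windows, in 11 genes, and in 13.6% of all windows.

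Some features of the deposited columns bear on every value that follows. In HUH7, 1315 of 10447 values (12.6%) were repeated, meaning that 10 or more genes held the same value to 6 decimals, and all of these lay beyond 7.5 in size. Repeated values are marked as such below and are not ranked. In PLC/PRF/5, the 9516 peaks were spread almost evenly over the range from -2.12 to just under 13, so that 15 bins of width 1 between -2 and 13 held 599 to 655 peaks each. Whether values so evenly spread are the fold changes of the genes beside them was not tested, so each printed PLC/PRF/5 value may not be a measured difference of its gene. The same holds for the repeated HUH7 values, whose levels held 53 to 68 genes each on the positive and 85 to 110 on the negative side. CSTF2 was listed once, in PLC/PRF/5, at -0.50 in the authors' deposited table, and an m6A value is no check of a knockout. Of 8 hepatocyte marker genes, 5 were listed in HUH7 and 6 in PLC/PRF/5. Endothelial markers were listed for 3 and 1 of 5, fibroblast or stellate markers for 2 and 0 of 5, and immune markers for 1 and 1 of 5. A listing is not a level of expression, so these counts do not check the cell type.

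In HUH7, the members went both ways and centred near 0. Positive values were held by 25 of the 51 listed and negative values by 26. The positive share was 49.0% (95% interval 34.8 to 63.4, Clopper-Pearson), against 60.8% over the column. Their median was -0.045 (quartiles -0.64 and 0.52), beside 0.20 for the column (quartiles -0.36 and 0.87). Large values were held by 20 members (39.2%), against 36.9% of the column, a share near the background. In the positive direction they numbered 11, where 22.2% of the column lay, and in the negative direction 9, where 14.6% of the column lay. When the column median was set to 0, 17 members were positive and 34 negative (33.3% positive), while the column is then split evenly by construction. The 8 whose sign turned were ACVR2A, ACVR2B, ID2, INHBE, LTBP2, SKIL, SMAD6 and TGFB1, and their signs in the counts below hold only as deposited. The interval describes this list of genes only and holds no error between libraries.

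**Figure D1:**
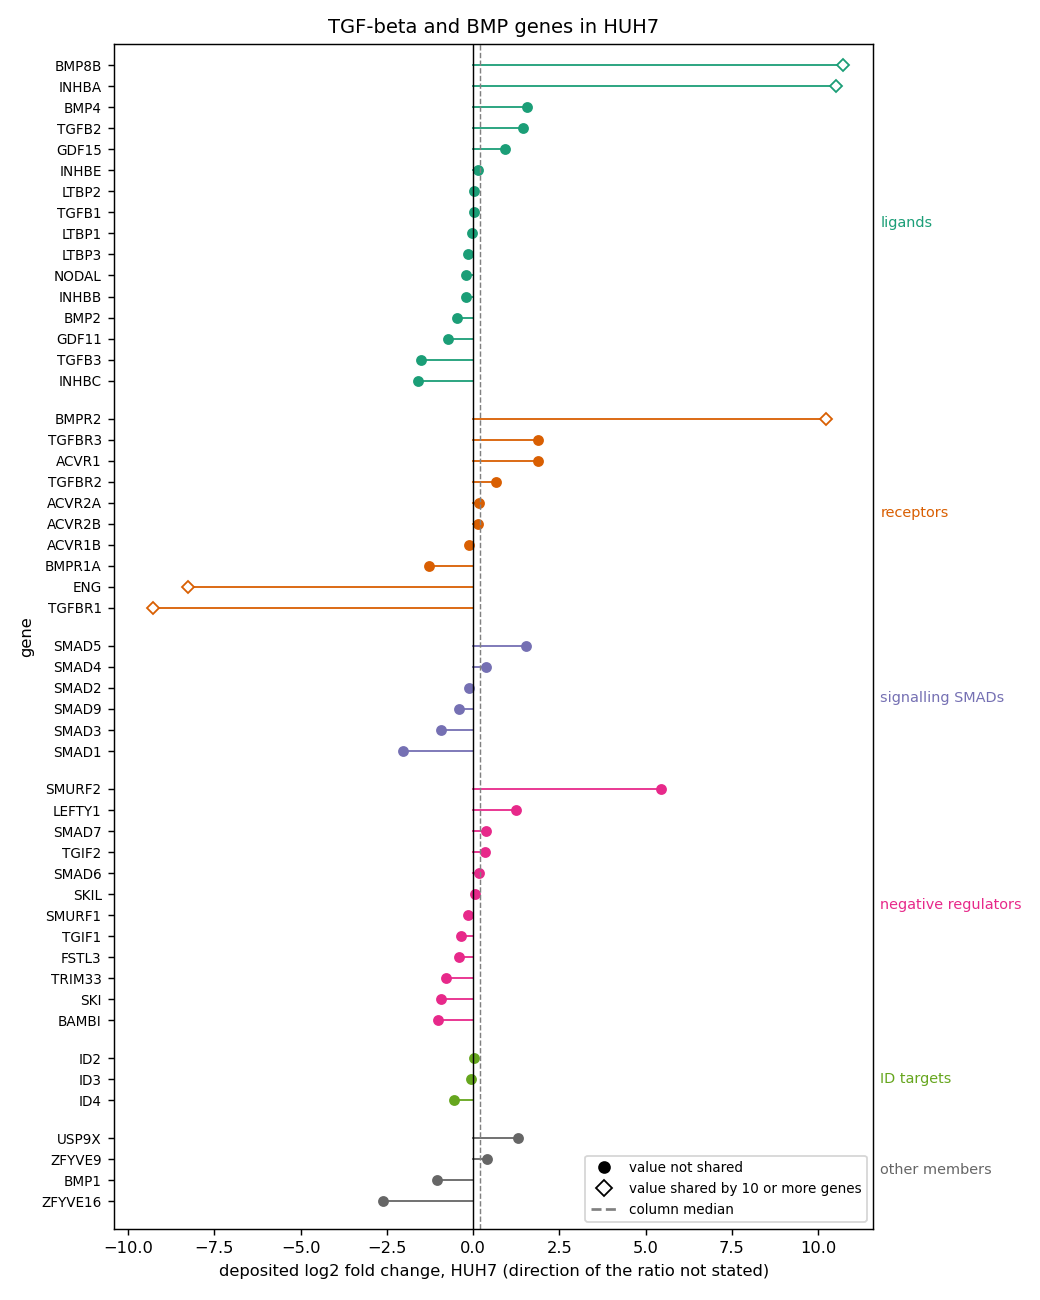
Deposited log2 fold change in HUH7 (x axis) for each of the 51 listed genes, grouped by role; filled circles are values of 1 gene, open diamonds values shared by 10 or more genes, and the dashed line is the column median of 0.20. Most points lie within 2 of 0, SMURF2 stands at 5.44, and the 5 diamonds (BMP8B, INHBA, BMPR2, ENG and TGFBR1) lie beyond 8 in size.

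Among the HUH7 ligands, the TGF-beta isoforms had unlike values while the proteins that store them stayed close to 0. TGFB2 was at 1.44, TGFB3 at -1.52 and TGFB1, the main isoform of the fibrotic liver, at 0.015 in the authors' deposited table. TGFB2 and TGFB3 thus stood 2.96 apart on the log2 scale, with TGFB1 between them. The latent TGF-beta binding proteins tether the inactive ligand to the matrix, and the 3 that were listed lay between -0.13 (LTBP3) and 0.036 (LTBP2) in the authors' deposited table, with LTBP1 at -0.045.

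The activin, nodal and GDF ligands were mostly small or negative in HUH7. INHBC, a liver-enriched activin subunit, was at -1.59, while INHBE, its neighbour on chromosome 12 and also liver-enriched, was at 0.13 in the authors' deposited table. INHBB (-0.21) and NODAL (-0.21), a ligand of early embryos, were small, and GDF11 was at -0.72 in the authors' deposited table. GDF15, a stress-induced cytokine that signals through a separate receptor, was at 0.94 in the same deposited table by the authors. INHBA, which encodes the subunit of activin A, held the repeated value 10.50, found for 67 genes of the authors' deposited table. Of these 7 ligands, INHBA and INHBC had large values (28.6%, against 36.9% of the column), and that of INHBA was a repeated one.

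Of the BMP ligands, BMP4 was at 1.57 and BMP2, an inducer of hepcidin, at -0.47 in HUH7 in the authors' deposited table. BMP8B held the repeated value 10.73, shared by 62 genes, in the authors' deposited table. Its close copy BMP8A was at 1.54, and reads of such near-identical genes may be split between them. BMP1, which despite its name is a protease that trims procollagens and cleaves the BMP inhibitor chordin, was at -1.04 in the authors' deposited table. As a class, the 16 listed ligands (of 19) had 8 positive and 8 negative values with a median of -0.015. Large values were held by 6 (37.5%, against 36.9% of the column).

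Among the receptors in HUH7, 3 of 10 held repeated values, with both signs among them. TGFBR1, the type I receptor of TGF-beta, held the repeated value -9.27, shared by 104 genes of the authors' deposited table. Its partner TGFBR2, the type II receptor, was at 0.65 in the authors' deposited table. TGFBR3 (betaglycan), a co-receptor that presents TGF-beta ligands, was at 1.88, and endoglin (ENG), a co-receptor best known from endothelium, held the repeated value -8.27, shared by 103 genes, in the authors' deposited table. The 4 receptors and co-receptors of TGF-beta itself thus split evenly by sign, but both negative values were repeated and both unrepeated ones positive.

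On the BMP side of the HUH7 receptors, ACVR1 (ALK2) was at 1.88 and BMPR1A (ALK3), both type I receptors for BMPs, at -1.27 in the authors' deposited table. The type II receptor BMPR2 held the repeated value 10.24, shared by 64 genes of the authors' deposited table. The activin receptors were all close to 0, with ACVR1B (ALK4) at -0.13, ACVR2A at 0.16 and ACVR2B at 0.14 in the authors' deposited table. ACVR2A and ACVR2B, which share much of their sequence and function, differed by 0.015. Of the 10 listed receptors, 6 were positive and 4 negative with a median of 0.15, and 6 were large, 3 of them repeated values. Without the repeated values, 3 of 7 were large, against 27.8% of the unrepeated values of the column, and the median was 0.16.

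The signalling SMADs were mostly negative in HUH7, with SMAD5 as the exception among those that receptors phosphorylate. SMAD1 was at -2.03, below all but 208 of the 9132 unrepeated values, and SMAD5 was at 1.54 in the authors' deposited table. These proteins are close relatives that transmit the same BMP signals, and they stood 3.57 apart on the log2 scale. SMAD9, the third of the BMP branch, was at -0.42 in the authors' deposited table. SMAD3 was at -0.94 and SMAD2 at -0.12, so that both effectors of the TGF-beta branch were negative and below 1 in size in the authors' deposited table. The common partner SMAD4 was at 0.38 in the authors' deposited table. In all, 2 of the 6 were positive and 4 negative, with a median of -0.27.

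SMURF2 held the largest unrepeated HUH7 value of the members, 5.44 in the authors' deposited table, a 43.3-fold difference. Only 14 of the 9132 unrepeated values of the column were higher. The highest of them, 7.92, is the log2 of the number of which the positive repeated values are whole multiples. The unrepeated values may thus still hold steps of that series that fewer than 10 genes share. SMURF2 is a ubiquitin ligase that marks TGF-beta receptors and SMADs for degradation, and its gene lies on chromosome 17, 64542282 to 64662307 (GRCh38, RefSeq). The related ligase SMURF1 was at -0.15 in the authors' deposited table, 5.59 below SMURF2 on the log2 scale. No other gene of the RefSeq table overlaps the span of SMURF2, whereas 36 of the 60 members overlap another gene.

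The other negative regulators were smaller in HUH7. LEFTY1, an antagonist of nodal, was at 1.24 and FSTL3, which binds activins, at -0.42 in the authors' deposited table. BAMBI, a receptor-like protein without a kinase domain that blocks signalling, was at -1.03 in the authors' deposited table. The inhibitory SMADs were near the column median, with SMAD6 at 0.18 and SMAD7 at 0.38 in the authors' deposited table. Among the nuclear co-repressors, SKI was at -0.92, SKIL (SnoN) at 0.048, TGIF1 at -0.36 and TGIF2 at 0.33 in the authors' deposited table, none of them large. TRIM33, which can ubiquitinate SMAD4, was at -0.78 in the authors' deposited table. The 12 listed negative regulators (of 15) were split into 6 positive and 6 negative values with a median of -0.052, and 3 were large.

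Proteins that hold or protect SMADs, and the ID targets, complete the HUH7 members. ZFYVE16 (endofin), an endosomal anchor for SMADs, had the lowest unrepeated value, -2.62, below all but 113 of the 9132 in the authors' deposited table. Its relative ZFYVE9 (SARA), which brings SMAD2 and SMAD3 to the receptor, was at 0.39 in the authors' deposited table, 3.01 higher on the log2 scale. USP9X, a deubiquitinase that acts on SMAD4, was at 1.30 in the authors' deposited table. The ID genes, inhibitors of helix-loop-helix factors and the best known BMP targets, had no large value in HUH7. Only 3 of them were listed, and 36.9% of the column was large. ID2 was at 0.029, ID3 at -0.051 and ID4 at -0.56 in the authors' deposited table.

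Compared by class, ligands, receptors, signalling SMADs and negative regulators each held values of both signs in HUH7. The medians were -0.015 for ligands, 0.15 for receptors, -0.27 for signalling SMADs and -0.052 for negative regulators, beside 0.20 for the column. Large values were held by 6 of 16 ligands, 6 of 10 receptors, 2 of 6 SMADs and 3 of 12 negative regulators, against 36.9% of the column. With 6 to 16 genes per class, 1 library per group and 3 repeated values among the receptors, these shares were not tested against each other. In 4 sets of relatives that share a function, SMURF1 with SMURF2, SMAD1 with SMAD5, ZFYVE9 with ZFYVE16 and TGFB2 with TGFB3, values lay 2.96 to 5.59 apart; these sets were chosen after their values were seen. In 4 others, SKI with SKIL, TGIF1 with TGIF2, SMAD6 with SMAD7 and ACVR2A with ACVR2B, they lay 0.015 to 0.97 apart. Further relatives fell among and between these, SMAD2 and SMAD3 at 0.82, TGFB1 and TGFB2 at 1.43, INHBC and INHBE at 1.72, and ACVR1 and BMPR1A at 3.15. The sorting into near and far sets was likewise made with the values seen. Distances between unrelated genes of the column were not computed.

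**Figure D2:**
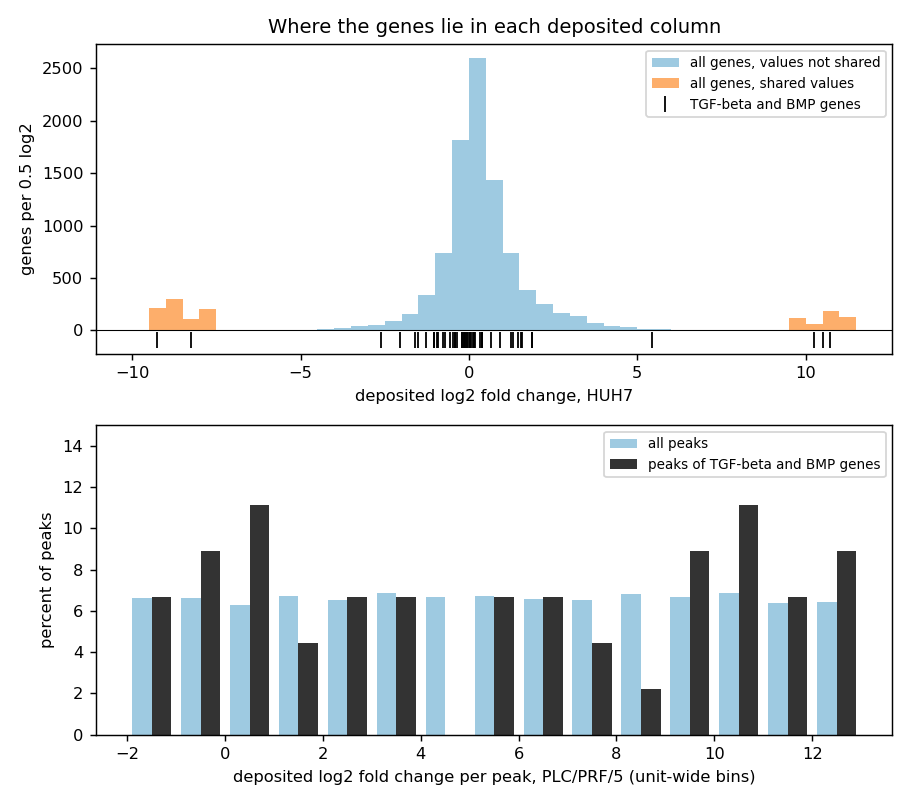
Upper panel: number of genes per 0.5 log2 (y axis) over the deposited HUH7 values (x axis), with repeated values in orange and the 51 listed TGF-beta and BMP genes as ticks; most ticks fall in the central peak. Lower panel: percent of peaks (y axis) per unit-wide bin of the PLC/PRF/5 values (x axis) for all 9516 peaks, which fill the bins almost evenly, and for the 45 peaks of the listed genes, with 0 to 5 peaks per bin.

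In PLC/PRF/5, the 23 listed members carried 45 peaks, most of them large and positive, as in the column as a whole. Positive values were held by 38 of the 45 and negative values by 7. The positive share was 84.4% (95% interval 70.5 to 93.5, Clopper-Pearson), against 86.0% of all 9516 peaks. This interval takes the 45 peaks as independent, although they come from 23 genes, so it is likely too narrow. It holds no error between libraries. The median was 5.36, beside 5.44 for all peaks. Large values were reached by 36 peaks (80.0%), against 87.1% of the column; 33 were positive (79.7% in the column) and 3 negative (7.31% in the column). By the median of its peaks, a gene was large in 19 of the 23 (89.0% in the column), in the positive direction each time (84.5% in the column, and 4.47% in the negative direction). With the column median set to 0, 22 of the 45 peaks were positive and 23 negative (48.9% positive), so the excess of positive peaks was that of the column. Each class was represented by few genes, 2 of 19 ligands, 7 of 11 receptors, 4 of 6 signalling SMADs, 5 of 15 negative regulators and 2 of 4 ID genes.

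**Figure D3:**
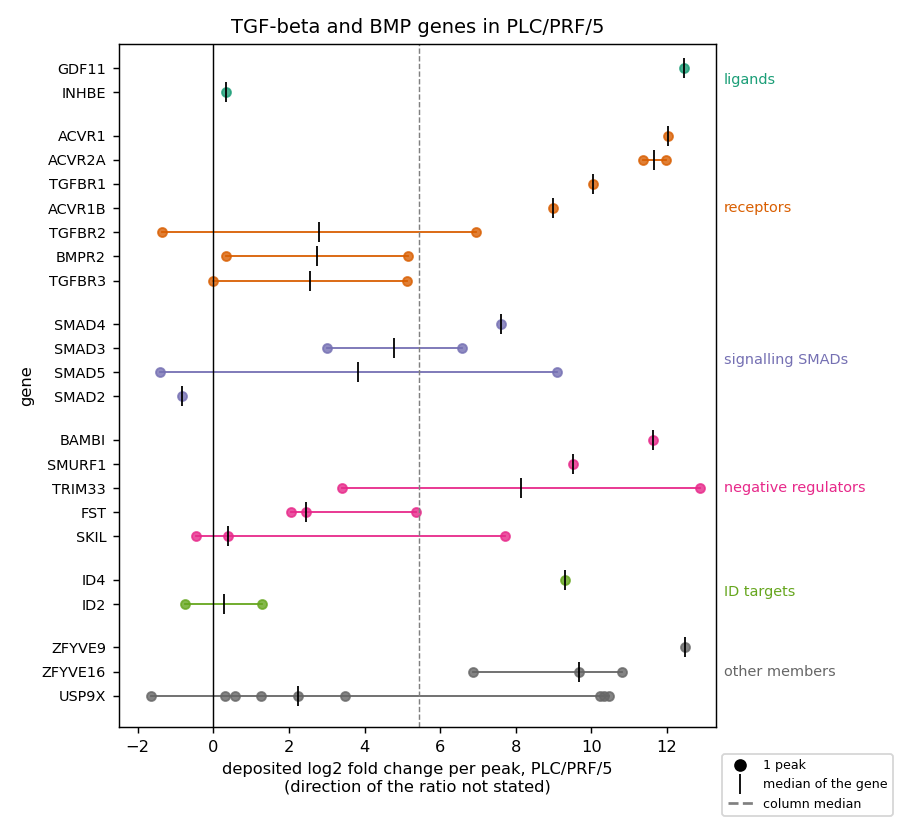
Deposited log2 fold change per peak in PLC/PRF/5 (x axis) for the 23 listed genes by role; each circle is 1 peak, the line joins the peaks of a gene, the tick marks their median and the dashed line the column median of 5.44. Peaks of the same gene often lie far apart, as in USP9X (-1.65 to 10.46) and SMAD5 (-1.42 to 9.08).

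The PLC/PRF/5 ligands were GDF11, with a peak at 12.46, and INHBE, with a peak at 0.34 in the authors' deposited table. No TGF-beta isoform, latent binding protein or BMP ligand was listed there, although 9 of these 12 were listed in HUH7. Among the type I receptors, ACVR1 had a peak at 12.01, TGFBR1 at 10.05 and ACVR1B at 8.99 in the authors' deposited table, all above the column median. Of the type II receptors, ACVR2A, BMPR2 and TGFBR2 had 2 peaks each, and ACVR2B was not listed. Only the peaks of ACVR2A were alike, at 11.36 and 11.96 in the authors' deposited table. The peaks of TGFBR2 were at -1.36 and 6.94 and those of BMPR2 at 0.33 and 5.16 in the authors' deposited table. TGFBR3 had peaks at -0.012 and 5.13 in the same deposited table by the authors.

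Among the PLC/PRF/5 SMADs, SMAD4 had a peak at 7.61 and SMAD2 at -0.83, the only member with no positive peak, in the authors' deposited table. The peaks of SMAD3 were at 3.01 and 6.57 and those of SMAD5 at -1.42 and 9.08 in the authors' deposited table. SMAD1, the lowest signalling SMAD in HUH7, and SMAD9 were not listed in PLC/PRF/5. The SMAD5 peaks were 10.51 apart on the log2 scale, so the gene has no 1 sign in this line.

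Of the PLC/PRF/5 negative regulators, BAMBI had a peak at 11.62 and SMURF1 at 9.51 in the authors' deposited table. SMURF2, the most extreme unrepeated member in HUH7, was not listed. TRIM33 had peaks at 3.40 and 12.88, the latter the highest peak of any member, in the authors' deposited table. SKIL had peaks at -0.46, 0.38 and 7.70, and follistatin (FST), which neutralises activins and was listed in this line only, had peaks at 2.07, 2.45 and 5.36 in the authors' deposited table. SMAD6 and SMAD7 were not listed, so the inhibitory SMADs have values in HUH7 alone.

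USP9X had the most peaks of any member in PLC/PRF/5, 9, in a gene of 151 kb on the X chromosome (41085445 to 41236579, GRCh38, RefSeq). They ran from -1.65 through a median of 2.23 to 10.46 in the authors' deposited table, with 3 of them between 10.24 and 10.46. ZFYVE16 had peaks at 6.88, 9.68 and 10.80, and ZFYVE9 had 1 at 12.48 in the authors' deposited table. Of the ID genes, ID4 had a peak at 9.31 and ID2 had peaks at -0.74 and 1.30 in the authors' deposited table.

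Peaks in the same gene often had unlike values. Among the 12 members with 2 or more peaks, 6 held peaks of both signs, against 33.2% of the 2165 such genes of the column. The 6 were TGFBR2, TGFBR3, SMAD5, SKIL, ID2 and USP9X. In the 8 members with 2 peaks, the distance between them had a median of 4.99 on the log2 scale, beside 4.35 over the 1273 genes of the column with 2 peaks. The distance ran from 0.60 in ACVR2A to 10.51 in SMAD5. Peaks of a gene share its transcript and are not replicates.

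Across both lines, 22 members could be set side by side, with the median of peaks standing for a gene in PLC/PRF/5. The sign was the same for 13 of them (59.1%), beside 56.8% of the 3926 genes shared by the columns, if both columns use the same direction. With 1 column turned, it was the same for 9 (40.9%, beside 43.2% of the shared genes), an alternative chosen after seeing the data. Of the 13 as deposited, 12 were positive in both lines and only SMAD2 was negative in both. Of the 3926 shared genes, 2075 were positive in both and 156 negative in both. ACVR2A, ID2, INHBE and SKIL, 4 of the 12, turn negative in HUH7 when that column is centred on its median; 9 of 22 (40.9%) then share a sign, beside 46.4% of the shared genes. As deposited, the other 9 members were negative in HUH7 and positive in PLC/PRF/5, and none was the reverse. The like counts were 1488 and 207 of the 3926 shared genes. ACVR1 had large positive values in both lines (1.88 and 12.01) in the authors' deposited table. By the median of peaks, so had TGFBR3, SMAD5 and USP9X, each with peaks of both signs, and BMPR2, whose HUH7 value was a repeated one. In the whole columns, 22.2% of HUH7 values and 84.5% of PLC/PRF/5 gene medians were large and positive. The share of the 3926 shared genes that were so in both was not computed. The authors' deposited table gave TGFBR1 values of opposite sign as deposited, the repeated -9.27 in HUH7 and 10.05 in PLC/PRF/5.

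**Figure D4:**
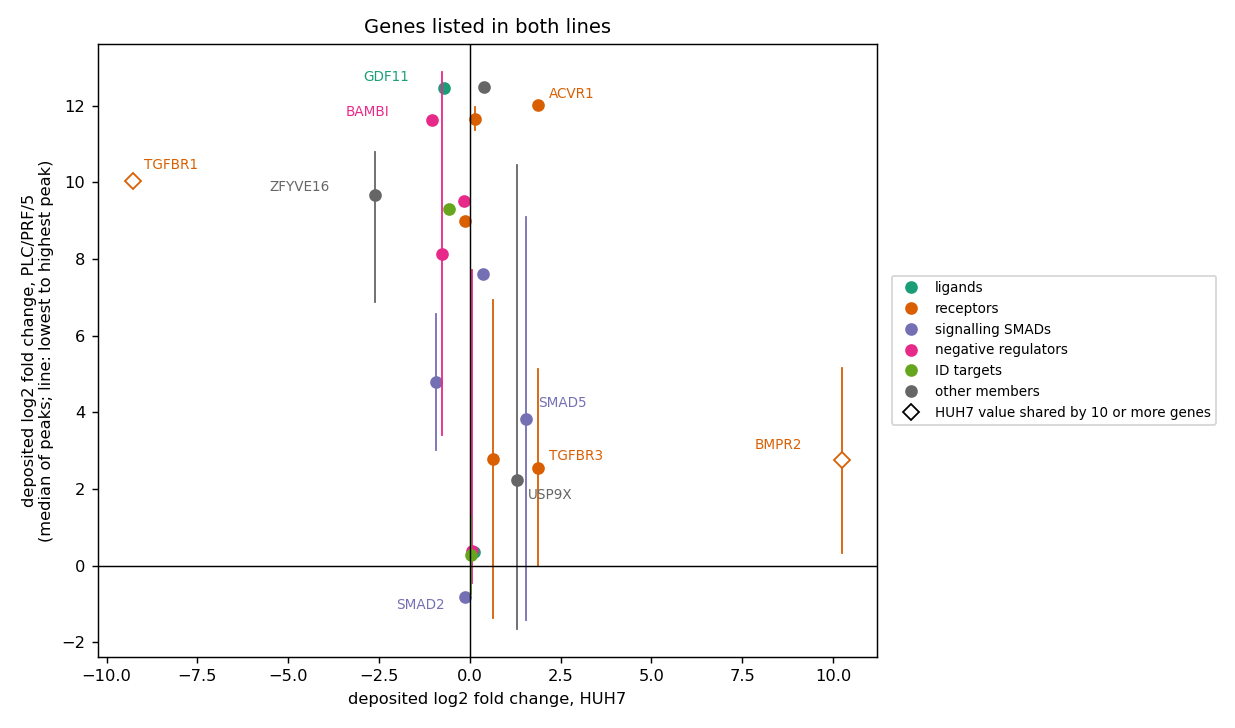
Deposited log2 fold change in HUH7 (x axis) against PLC/PRF/5 (y axis; point, median of the peaks of a gene; line, lowest to highest peak) for the 22 genes listed in both lines, coloured by role, with open diamonds for repeated HUH7 values. All medians but that of SMAD2 lie above 0 on the y axis, and the HUH7 values lie on both sides of 0.

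Other genes of the pathway also went both ways in HUH7. Of 104 further genes, 66 were listed in HUH7, 38 positive and 28 negative, with a median of 0.28. Large values were held by 22 in the positive and 9 in the negative direction (47.0% together, 36.9% in the column), 10 of them repeated values, 3 positive and 7 negative. Among the targets of TGF-beta or BMP signals, 18 of 23 were listed, 11 positive and 7 negative. Of these, 5 and 2 were large (38.9% together, a share near the 36.9% of the column). In the column, 22.2% were large and positive and 14.6% large and negative. The value of SNAI2, 1 of the 2 large negative targets, was a repeated one. The collagen genes COL1A2 (4.01) and COL1A1 (3.97), which TGF-beta induces in matrix-producing cells, had the largest unrepeated positive values in the authors' deposited table. PPP2R1B (3.18), a phosphatase scaffold subunit, and TLL2 (3.08), a relative of BMP1, followed in the authors' deposited table.

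On the negative side of these further genes in HUH7, XIAP was at -2.56, an inhibitor of apoptosis that links receptors to TAK1, and MSX1, a BMP target, at -1.10 in the authors' deposited table. RNF111 (Arkadia), a ligase that removes SMAD7 and SKIL, was at -0.77, and the acetyltransferase gene CREBBP, a SMAD co-activator, at -0.68 in the authors' deposited table. In PLC/PRF/5, 31 of the 104 were listed with 59 peaks, 53 positive and 6 negative (89.8% positive against 86.0% of all peaks). The highest peaks were those of TAB2 (12.97), RNF111 (12.93), PPP2CA (12.72) and MAP3K7 (12.52) in the authors' deposited table. TAB2 and MAP3K7 encode parts of the TAK1 kinase complex, the main branch of TGF-beta signalling outside the SMADs. The lowest peaks were those of CREBBP (-1.77), ZEB1 (-1.63), ITGAV (-1.41) and ROCK1 (-0.81), and these 4 genes also had positive peaks up to 7.57, 8.46, 5.62 and 11.98 in the authors' deposited table.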

How the data were processed

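Total RNA was taken up in Trizol, mRNA was selected with oligo(dT) beads and fragmented, and m6A fragments were immunoprecipitated, per the labels' protocols. The deposited values are log2 fold changes made by the authors, per the file headers, 1 column per cell line. The submitters' processing notes name FastQC 0.12.0 and genome build hg38. Aligner, peak caller, scaling and filters were not given in the sources used here. Depth is unknown, so no value carries a counting interval.

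Gene names were matched with RefSeq (GRCh38.p14), through the symbol or an unambiguous synonym (Python 3.11.15, pandas 2.3.3, scipy 1.17.1). All member values matched by symbol. HUH7 values above 1 in size that 10 or more genes shared to 6 decimals were called repeated, and this step was tested on simulated data. No test was run, since each group held 1 library. Every listed member is named, and of the 104 further genes the 4 largest unrepeated values per line and sign. Members, roles and lists were chosen with earlier results of these data known. A total of 36 members overlap another RefSeq gene, 8 of them a gene named as antisense. Without stated strand, their reads cannot be told apart.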

Additional observations from a re-analysis of the deposited data

Results flagged for a closer look

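TGFBR1, BAMBI and ZFYVE16 had large values of opposite sign in the lines, with every PLC/PRF/5 peak opposite to the HUH7 value. In the authors' deposited table, TGFBR1 was at -9.27 in HUH7, a value held by 104 genes, and at 10.05 in PLC/PRF/5. The authors' deposited table gave BAMBI -1.03 in HUH7 and 11.62 in PLC/PRF/5. For ZFYVE16, the authors' deposited table held -2.62 in HUH7 and peaks from 6.88 to 10.80 in PLC/PRF/5. The differences between the lines were not tested, and they rest on a common direction of the ratio, which is not stated. In the columns as a whole, 1488 of 3926 shared genes were negative in HUH7 and positive in PLC/PRF/5 at any size, by the median of peaks. The like count for the members was 9 of 22. How many of all shared genes meet the stricter rule, large values with every peak opposite, was not counted.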

How the results depend on the processing

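Matching by current symbol alone changed none of the values. Centring on the column median moved the HUH7 share of positive members from 49.0% to 33.3% and their median from -0.045 to -0.24. It moved the PLC/PRF/5 share of positive member peaks from 84.4% to 48.9%, and their median turned from 5.36 to -0.074. This follows from subtracting column medians of 0.20 and 5.44. Keeping large values only gave a HUH7 median of 1.27 over 20 genes. This follows from dropping all values below 1 in size when 11 of the 20 left were positive. The 20 large HUH7 values became 8 at a threshold of 2, where 21.4% of the column lay, and 15 of 46 without repeated values (32.6%, against 27.8% of the unrepeated column). With 1 value per gene in PLC/PRF/5, 95.7% of 23 genes were positive by the median of peaks, against 90.3% of 5475 in the column. By the peak of largest size the share was also 95.7%, and those peaks had a median of 9.08. No column share was computed for the peak of largest size, and a column running from -2.12 to 13.00 favours positive ones. No paired analysis was possible because each group held 1 library. Depth is unknown, and no library could be left out.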

Other observations

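The repeated HUH7 values of the members fell on regular steps. On the linear scale, the 8 positive repeated values of the column were whole multiples, from 3 to 10, of 1 number (within a tolerance of 0.01), and the 8 negative ones were whole multiples, from 3 to 10, of another. BMPR2 lay on multiple 5, INHBA on 6 and BMP8B on 7 of the positive series. ENG lay on 5 and TGFBR1 on 10 of the negative series. The steps of the positive series held 53 to 68 genes each and those of the negative series 85 to 110. Of the listed members, 9.80% held such a value, beside 12.6% of the column.

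Members listed in both lines came from longer genes than those listed in HUH7 only, with a median gene length of 81.0 kb (n = 22) against 31.1 kb (n = 29). The same held for all protein-coding genes, with 44.5 kb (n = 3888) against 24.7 kb (n = 6348). Gene length is that of the RefSeq span, introns included.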
